A study of Mus musculus with 12 samples.

Results

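The comparison described here is spaceflight against ground control in the gastrocnemius, the large calf muscle that extends the ankle. Its members are the 6 gastrocnemius libraries of a series of 12, chosen by their labels as 3 ground and 3 flight libraries, each from a different mouse. The other 6 libraries are the quadriceps of the same mice and enter only where a difference between the muscles was tested. Mice were female, 30 weeks old at the start, and of the strain C57BL/6 in the sample labels, while the study's methods name BALB/c. Ground mice (M02, M03 and M08, called ground 1 to 3) stayed on Earth in the hardware used in orbit, and flight mice (M11, M12 and M20, called flight 1 to 3) lived on the International Space Station for 9 weeks. Every mouse received phosphate-buffered saline under the skin once in 2 weeks, as the control arm of a drug study. Muscles of the left hind limb were taken from frozen, thawed carcasses. Each library was sequenced as 50-base single-end reads from whole muscle, so fewer cells of a type and less RNA per cell cannot be told apart.

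Skeletal muscle is built from fibers that differ in speed and fuel. Slow fibers burn fatty acids in abundant mitochondria, while fast fibers lean on glycogen and glycolysis, and loss of weight bearing is known to shift limb muscle toward the fast type. Many muscle proteins also exist in alternatively spliced forms, in which an exon is kept, skipped or exchanged for another, and titin (Ttn), nebulin (Neb) and the troponins are among the best known. Levels below are TPM, transcript abundance scaled for transcript length and to 1 total per library. Differences are on the log2(TPM + 1) scale, flight minus ground, with the standard error (SE) of limma's moderated fit. A gene was called where the Benjamini-Hochberg adjusted p over all genes tested was under 0.05 and the change was over 1.5-fold. Exon usage is the percent spliced in (PSI), for a skipped exon the share of transcripts that hold it, estimated from junction reads. In an exclusive pair it is the exon's share of the pair's length-scaled junction reads, not a share of all transcripts.

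The libraries were muscle by their markers. The summed level of 10 muscle fiber markers was 73810 to 77290 TPM on the ground and 75530 to 79530 TPM after flight, and none of them was at 0 in every library. The listed genes summed to 923295 to 924762 TPM in ground libraries and 937534 to 946314 TPM in flight libraries. Transcripts of the mitochondrial genome took 154236 to 176225 TPM on the ground and 202645 to 220355 TPM after flight. A pair of identical rows, the processed pseudogenes Gm12895 and Gm12896, which share 99.0% of their 31-base words with other genes, held 69482 to 70526 TPM each on the ground and 47405 to 56534 TPM each after flight. These large rows move the level of every other gene, and their part in the results was not tested. Rescaling the libraries by their median ratio moved the median log2 difference of all genes from 0.02 to 0.0055. Markers of red blood cells summed to 383 to 817 TPM on the ground and 351 to 539 TPM after flight, and Schwann cell markers to 132 to 193 and 159 to 280 TPM. Markers of adipocytes, endothelium, macrophages, tendon cells, fibroblasts and smooth muscle also overlapped between the groups. None of these 9 lists had a member with an adjusted p under 0.05, and no marker was at 0 in every library.

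Between flight and ground, 24 of 10481 genes tested were called (0.229%), 12 of them higher and 12 lower in flight. Of these, 11 are predicted genes or numbered pseudogenes, and 4 belong to the slow-twitch or ribosomal protein lists (Myl2, Myl3, Atp2a2 and Rps27a). The other 9 are Mid1, Fblim1, Hmga1 and BC002163, which rose, and Fabp3, Acaa2, Ech1, Idh2 and Ldhb, which fell. At an unadjusted p under 0.05, 893 genes were higher (8.52% of those tested) and 687 were lower (6.55%). The 3 flight values lay wholly above or below the 3 ground values in 2201 genes (21.0%). The number of called genes rested on single libraries. It was 133 without flight 1, 2 without flight 2 and 1 without flight 3, and 6, 3 and 8 without ground 1, ground 2 and ground 3. Of the 24 called genes, 7 had an adjusted p under 0.05 in 2 or more of the 6 fits without 1 library. Fblim1, Hmga1, Fabp3, Acaa2, Ech1, Idh2, Ldhb and Atp2a2 had one in 1 of the 6, the fit without flight 1.

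Mid1 had the smallest p of all genes. It encodes midline 1, a microtubule-bound ubiquitin ligase, and lies on chromosome X from 169685199 to 170005736 on the plus strand of GRCm38. Its level was 17.5, 18.4 and 18.2 TPM in ground 1 to 3 and 40.3, 45.7 and 45.5 TPM in flight 1 to 3. All flight libraries stood well above all ground libraries, with means of 18.01 ± 0.458 and 43.8 ± 3.03 TPM (SD, n = 3). The log2 difference was 1.24 (SE 0.09) with an adjusted p of 0.00887, and the adjusted p stayed under 0.05 in 5 of 6 fits without 1 library.

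Fblim1, which encodes the filamin-binding LIM protein migfilin of cell adhesions, lies on chromosome 4 from 141576062 to 141606096 on the minus strand. It measured 7.72, 8.29 and 7.98 TPM on the ground and 14.1, 17.3 and 17.6 TPM after flight. The flight level was 2.04 times the ground level without overlap, a log2 difference of 0.94 (SE 0.11, adjusted p 0.0361). Hmga1 encodes a chromatin protein that bends DNA at AT-rich sites. Its values were 6.84, 6.87 and 4.85 TPM on the ground against 12.4, 14.6 and 15.1 TPM after flight (log2 difference 1.07, SE 0.15, adjusted p 0.0477). However, 62.1% of the 31-base words of Hmga1 transcripts also occur in other genes, so reads of copies could have been counted there. BC002163, a processed pseudogene, went from 6.23, 3.34 and 2.10 TPM to 24.1, 19.8 and 30.9 TPM (adjusted p 0.0361), and 81.0% of its words are shared.

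**Figure D1:**
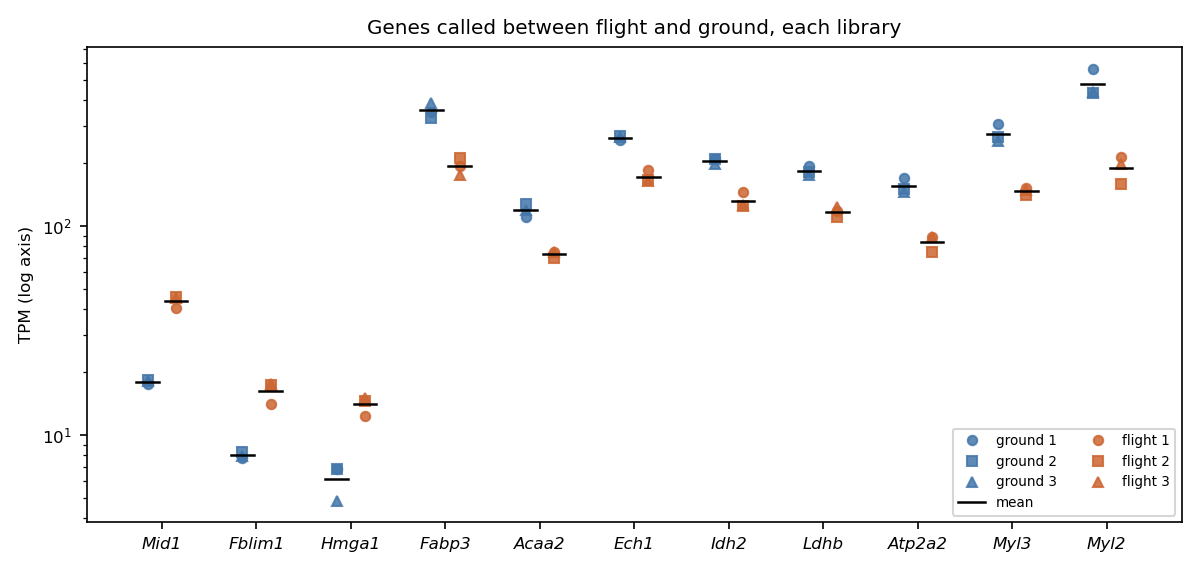
TPM of 11 called genes in each gastrocnemius library on a log axis, with ground in blue, flight in orange and the mean of 3 libraries as a black bar. Mid1, Fblim1 and Hmga1 are higher in every flight library, and the other 8 genes are lower in every flight library.

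The predicted genes and pseudogenes among the calls are short and mostly repeat the sequence of other genes. Gm13453 was listed at 0, 0 and 2.64 TPM on the ground and at 19.3, 69.1 and 46.4 TPM after flight. Gm12350 was at 0, 0 and 0.814 TPM against 10.6, 51.6 and 14.8 TPM. Rpl30-ps9 was under 0.16 TPM in each ground library and at 10.6, 105 and 35.3 TPM after flight. Flight libraries were thus higher but spread widely among themselves. Gm10491 was listed at 28.0, 6.61 and 14.8 TPM on the ground and at 0 in all flight libraries. Gm17545 showed the reverse, with 0 in all ground libraries and 2.45, 2.75 and 3.51 TPM after flight. Of the 24 called genes, 11 share over 50% of their 31-base words with other genes and 8 share under 10%. Between these lie Fabp3 (37.3%), Ldhb (33.0%), Rps27a (22.0%), Mid1 (16.4%) and Gm17545 (11.9%). Reads of shared words cannot be assigned with certainty to 1 locus.

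Genes of fatty acid uptake and beta-oxidation, the pathway that shortens fatty acids inside mitochondria, were lower in flight as a group. Of 31 members tested, 29 had a difference below 0, 21 were lower at an unadjusted p under 0.05 (67.7%, against 6.55% of all genes) and none was higher. The median log2 difference was -0.28, against 0.02 over all genes tested, and it stayed between -0.31 and -0.26 without any 1 library. Fabp3, Acaa2 and Ech1 were the 3 members that fell past the adjusted threshold. Leaving out 1 library moved the count of lower members to between 12 and 20. The level was lower in each flight mouse. The list's median deviation from the ground mean was -0.24, -0.28 and -0.30 in flight 1 to 3.

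Uptake and transport genes come first in this pathway. Fabp3, the heart and muscle fatty acid-binding protein, lies on chromosome 4 from 130308595 to 130315463. It was at 353, 329 and 389.6 TPM on the ground and at 193, 212 and 175 TPM after flight. These groups did not overlap, and the mean fell from 357 ± 30.5 to 193 ± 18.4 TPM (SD, n = 3), a log2 difference of -0.88 (SE 0.10, adjusted p 0.0361). Lpl, the lipase that frees fatty acids from circulating triglycerides, had 228, 219 and 208 TPM against 164, 145 and 161 TPM and an adjusted p of 0.0963. Cd36, the fatty acid transporter of the cell surface, had 199, 196 and 214 TPM against 161, 160 and 181 TPM (adjusted p 0.216). Both were lower in every flight library but did not pass the adjusted threshold.

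The enzymes inside the mitochondrion were lower as well. Acaa2, the thiolase of the last beta-oxidation step, fell from 110, 127 and 119 TPM to 75.4, 70.3 and 75.1 TPM, a log2 difference of -0.68 (SE 0.08, adjusted p 0.0361). Ech1, an isomerase for unsaturated fatty acids, fell from 257, 269 and 265 TPM to 185, 165 and 165 TPM, a log2 difference of -0.62 (SE 0.08, adjusted p 0.0361). Flight values of both genes were below all ground values. Eci1, another isomerase, was at 107, 109.7 and 107 TPM against 80.3, 78.3 and 69.2 TPM (adjusted p 0.0908). The trifunctional enzyme, which performs the middle steps for long chains, is encoded by Hadha and Hadhb, and their log2 differences were -0.34 and -0.55 with adjusted p values of 0.149 and 0.103. Of the members without an unadjusted p under 0.05, chosen for mention after their values were seen, Cpt1b, which admits long chains to the mitochondrion, had a log2 difference of -0.11, and Pdk4, a kinase that turns muscle toward fat, had -0.0074.

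**Figure D2:**
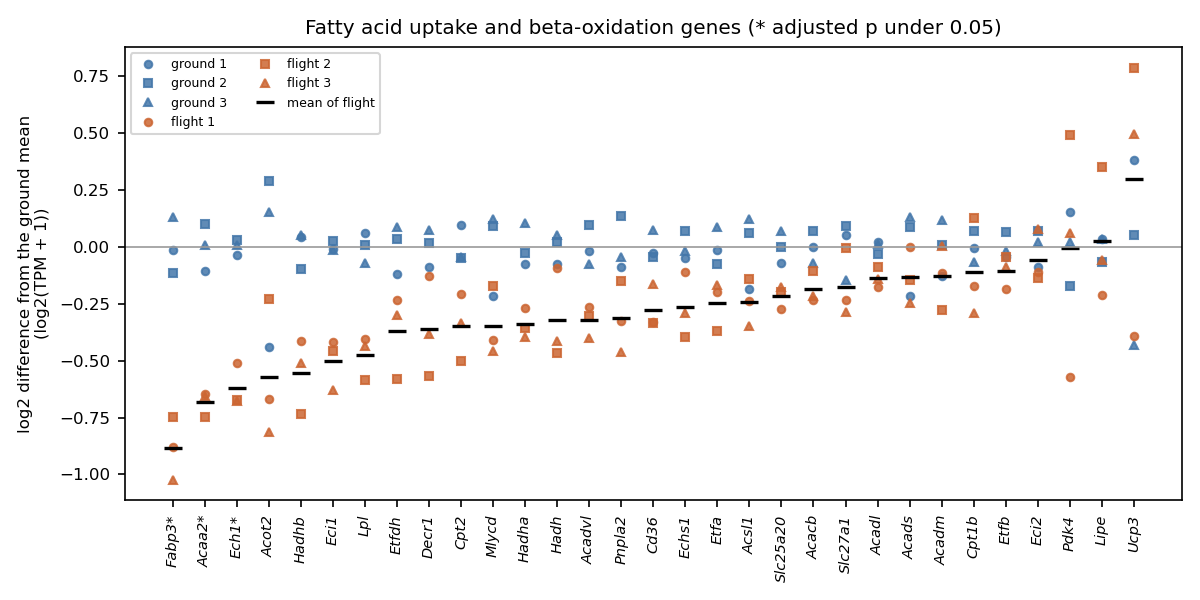
Each gastrocnemius library's log2(TPM + 1) minus the ground mean for the 31 fatty acid uptake and beta-oxidation genes, ordered by the mean of flight (black bars), with ground in blue and flight in orange. The 29 genes to the left have a mean below 0, and the 3 with an adjusted p under 0.05 (Fabp3, Acaa2 and Ech1) are starred.

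For the lists that follow, members counted as higher or lower had an unadjusted p under 0.05, which 8.52% and 6.55% of all genes tested had, and a list's share near these values is background. In pyruvate oxidation and the citric acid cycle, 6 of 23 members were lower and 1 was higher at an unadjusted p under 0.05, with a median log2 difference of -0.17. Idh2, the mitochondrial NADP-linked isocitrate dehydrogenase, was the called member. It measured 209.9, 208 and 198 TPM on the ground and 146, 125 and 126 TPM after flight, and fell by 0.64 on the log2 scale (SE 0.09, adjusted p 0.0446). Mpc2, a subunit of the mitochondrial pyruvate carrier, had 162, 173 and 175 TPM against 137, 119 and 105 TPM (adjusted p 0.133). Of 18 genes of ketone body and branched-chain amino acid breakdown, 4 were lower and none was higher. Bdh1, which interconverts the main ketone bodies, was at 12.1, 6.99 and 7.75 TPM against 3.64, 1.01 and 1.86 TPM (log2 difference -1.70, adjusted p 0.107). Oxct1, which activates ketone bodies for burning, had a log2 difference of -0.27 (adjusted p 0.209).

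The machinery that builds mitochondria was lower mainly in a pair of the flight mice. Of 41 genes of mitochondrial protein import and dynamics, 13 were lower and none was higher at an unadjusted p under 0.05, with a median of -0.18. Chchd2, a small protein of the intermembrane space, had 166, 184 and 174 TPM on the ground and 128, 99.1 and 108 TPM after flight (adjusted p 0.0908). Slc25a4, the ADP/ATP carrier of muscle, had 1317, 1431 and 1366 TPM against 1218, 1103 and 1071 TPM (adjusted p 0.191). Of 78 mitochondrial ribosomal protein genes, 14 were lower and 1 was higher, with a median of -0.12. Mrpl43 measured 21.6, 21.9 and 20.4 TPM against 16.2, 16.1 and 15.7 TPM, and Mrpl34 measured 22.1, 27.5 and 23.4 TPM against 17.5, 15.8 and 17.7 TPM (adjusted p 0.127 and 0.138). No member of either list was called. The import list's median deviation from the ground mean was -0.07 in flight 1 but -0.18 and -0.21 in flight 2 and 3, and for the mitochondrial ribosome it was -0.05, -0.18 and -0.20. Without single libraries the lower members numbered 6 to 17 of 41 and 6 to 24 of 78.

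Transcript length moved with the difference. Across 10476 tested genes with an annotated length, the median log2 difference was -0.04 in group 1 of 4 by length, with transcripts of up to 1964 bases, and 0.07 in group 4, with transcripts from 4798 bases. Spearman's rho between the longest annotated transcript and the difference was 0.17, a description across genes of the same 6 libraries. In the group of shortest transcripts the median deviation from the ground mean was 0.0074 in flight 1, -0.07 in flight 2 and -0.07 in flight 3, and in that of the longest it was 0.09, 0.06 and 0.07. The median longest transcript was 1866.5 bases for mitochondrial ribosomal proteins, 2381 for mitochondrial import, 2874 for fatty acid genes and 3961 for splicing regulators. Its part in these results was not tested.

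**Figure D3:**
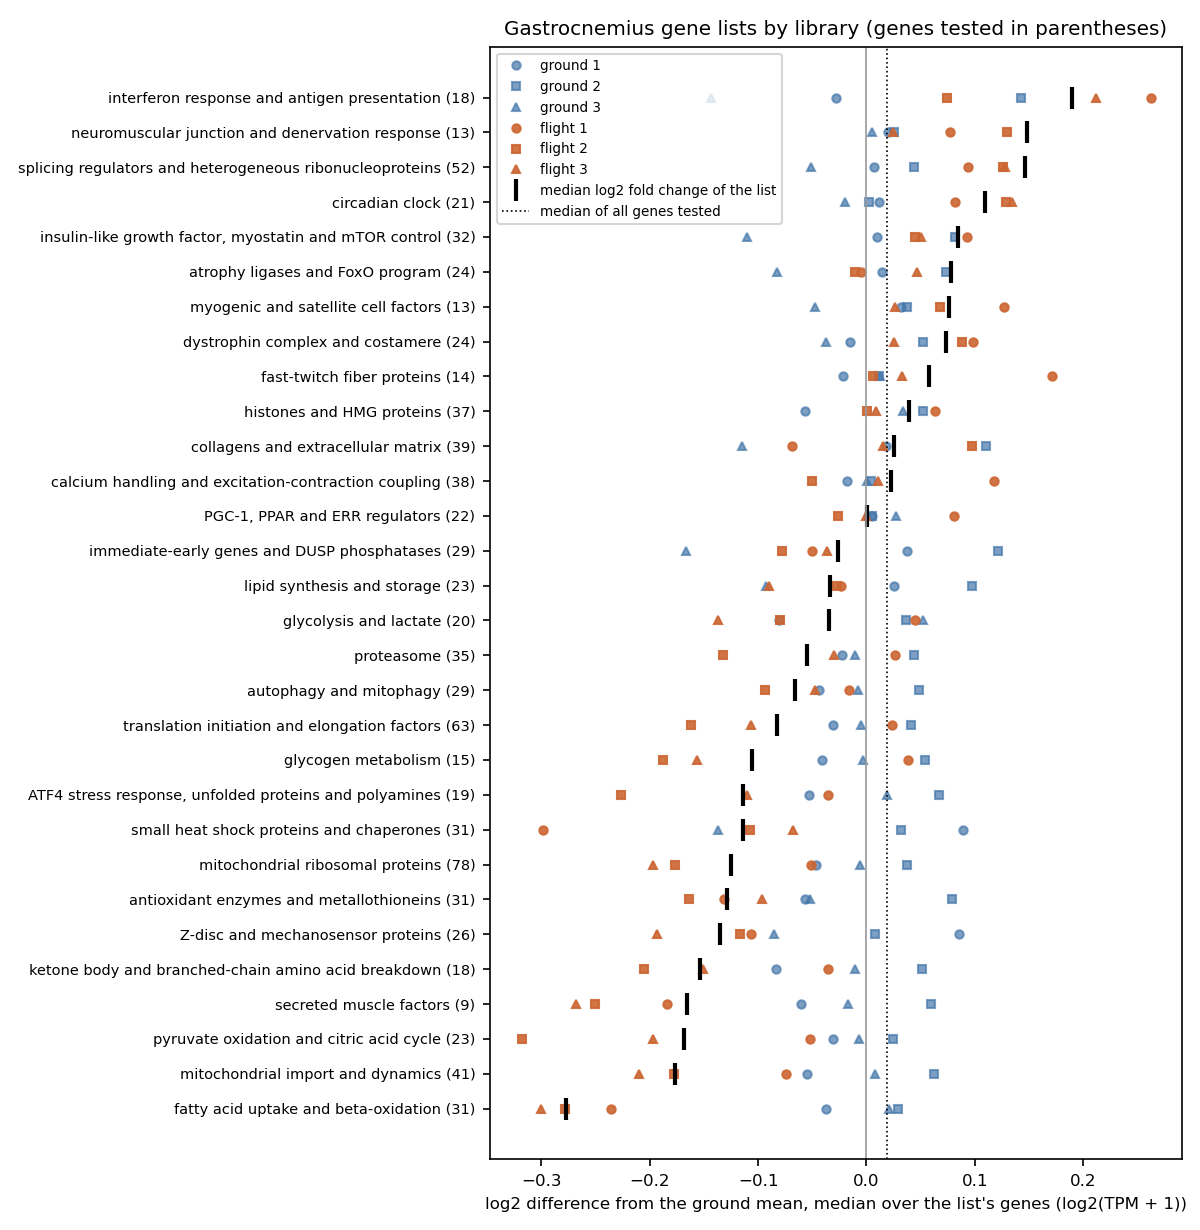
Median deviation of each gastrocnemius library from the ground mean of log2(TPM + 1), over the tested genes of 30 lists (number in parentheses), with ground in blue and flight in orange. Black bars give the list's median log2 difference and the dotted line that of all genes tested (0.02). Fatty acid genes lie furthest to the left, with all flight points at -0.24 or below.

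Ldhb, which encodes the lactate dehydrogenase subunit typical of oxidative muscle, was the called gene of the glycolysis list. Its level was 194, 182 and 175 TPM on the ground and 118, 110.2 and 123 TPM after flight, without overlap (log2 difference -0.65, SE 0.08, adjusted p 0.0361). Slc16a1, a lactate transporter, measured 11.6, 11.3 and 12.1 TPM against 8.66, 7.48 and 7.53 TPM (adjusted p 0.112). Gpd1, the cytosolic glycerol phosphate dehydrogenase, was on the other side with 169, 178 and 175 TPM against 223, 218 and 202 TPM (adjusted p 0.156). In all, 3 of 20 genes were lower (15%) and 2 were higher (10%) at an unadjusted p under 0.05, and the median was -0.03. Pgk1 was lower as well (log2 difference -0.83, adjusted p 0.174), but 54.7% of its 31-base words are shared with other genes.

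Of 15 glycogen genes, 4 were lower (26.7%) and 1 was higher (6.67%, near the share of all genes). Phkg1, the catalytic subunit of muscle phosphorylase kinase, which starts glycogen breakdown, had 331, 350.2 and 340.1 TPM on the ground and 429, 426 and 439.9 TPM after flight. Each flight value exceeded each ground value, with an adjusted p of 0.107. The lower members included the synthesis enzymes Ugp2 at a log2 difference of -0.62, Gbe1 at -0.36 and Gyg at -0.34 (adjusted p 0.16, 0.209 and 0.275). The other lower member, Gaa, encodes an enzyme of glycogen breakdown and had -0.29 (adjusted p 0.2175). Fast-twitch proteins, which the list median places at 0.06, had 4 of 14 members higher and none lower. The list's median deviation from the ground mean was 0.17 in flight 1 but 0.0063 and 0.03 in flight 2 and 3. Without single libraries 0 to 3 members were higher. Myh4, the fastest myosin heavy chain of limb muscle, had 16600, 16950 and 17370 TPM against 19690, 18370 and 19290 TPM (log2 difference 0.17, adjusted p 0.278), and Tnnt3, fast troponin T, had a log2 difference of 0.18 (adjusted p 0.245).

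Proteins that bear and sense load at the Z-disc, the anchor of the thin filaments, included 5 of 26 members that were lower and none that was higher, with a median of -0.14. Ankrd2, a stretch-responsive ankyrin repeat protein, measured 125, 66.1 and 53.3 TPM on the ground and 34.8, 45.7 and 21.7 TPM after flight (log2 difference -1.20, adjusted p 0.217). Myoz2, a calcineurin-binding protein of slow Z-discs, measured 128, 93.4 and 93.6 TPM against 68.6, 55.8 and 60.9 TPM (adjusted p 0.111). Actn2, an alpha-actinin, had a log2 difference of -0.56 and Pdlim5 of -0.49 (adjusted p 0.156 and 0.142). The ground libraries of these 4 genes were themselves spread, with ground 1 the highest in each. Small heat shock proteins, which protect the Z-disc and its filaments, showed the same order. Cryab had 743, 602 and 516 TPM against 319, 392 and 362 TPM (adjusted p 0.103), and Hspb7 had 133, 87.9 and 82.8 TPM against 60.9, 48.4 and 47.0 TPM (adjusted p 0.126). Of 31 chaperones, 7 were lower and none was higher, with a median of -0.11. The list's median deviation from the ground mean was -0.30, -0.11 and -0.07 in flight 1 to 3. In ground 1 to 3 it was 0.09, 0.03 and -0.14, so the groups overlapped. Without single libraries 6 to 9 members were lower and 0 to 3 were higher.

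At the costamere, which ties the sarcomere to the membrane, Fblim1 was the called gene, and 3 of 24 members were higher and 1 was lower at an unadjusted p under 0.05. Utrn, the dystrophin relative utrophin, had a log2 difference of 0.38 (adjusted p 0.279). In calcium handling, 4 of 38 members were higher (10.5%) and 3 were lower (7.89%), close to the shares of all genes. Atp2a2, the SERCA2 calcium pump of slow fibers, was at 169.6, 150.4 and 145 TPM on the ground and 88.1, 74.8 and 89.0 TPM after flight. It fell by 0.88 on the log2 scale (SE 0.10, adjusted p 0.0361). Trdn, the triadin of the calcium release unit, had 1295, 1227 and 1277 TPM against 1584, 1423 and 1721 TPM, and Ryr1, its release channel, had 1087, 1118 and 1048 TPM against 1286, 1231 and 1194 TPM. Both were higher in every flight library without passing the adjusted threshold (0.19 and 0.257).

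No member of the lists of protein breakdown and growth control passed the adjusted threshold, while Mid1, a ubiquitin ligase on none of them, did. Of 24 atrophy ligases and FoxO genes, 3 were higher and 1 was lower, with a median of 0.08. Trim63, the muscle ubiquitin ligase MuRF1, had 132, 127 and 119 TPM on the ground and 144, 155 and 170.3 TPM after flight (log2 difference 0.31, adjusted p 0.21). Fbxo32, the ligase atrogin-1 and named after its value was seen, had a log2 difference of -0.06. Proteasome genes had 4 of 35 members lower and none higher, with Psmb4 at -0.49 (adjusted p 0.221). Of 29 autophagy genes, 5 were lower and none was higher, and Gabarapl1, which coats the autophagosome, had 33.8, 32.0 and 27.5 TPM against 20.8, 23.6 and 22.9 TPM (adjusted p 0.149). Of 32 genes of growth control by insulin-like growth factor, myostatin and mTOR, 1 was higher and none was lower, namely Rps6kb1, the S6 kinase (0.39, adjusted p 0.213).

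Among stress defenses, antioxidant genes had 5 of 31 members lower and 1 higher, with a median of -0.13. Prdx2, a peroxiredoxin that removes hydrogen peroxide, measured 98.2, 83.5 and 93.5 TPM on the ground and 67.1, 46.6 and 58.7 TPM after flight (log2 difference -0.68, adjusted p 0.126). Gclc, the catalytic subunit for glutathione synthesis, was the higher member with 7.18, 7.35 and 6.37 TPM against 9.24, 9.53 and 8.78 TPM (adjusted p 0.21). Of 19 ATF4, unfolded protein and polyamine genes, 6 were lower and none was higher. Atf5, a stress-induced transcription factor, had 34.8, 31.5 and 32.4 TPM against 26.0, 25.7 and 27.7 TPM (adjusted p 0.193). The polyamine genes Odc1, Oaz1, Sms and Amd1 had log2 differences from -0.61 to -0.36, but flight 1 lay within or near the ground values of each of them, and 82.8% of the 31-base words of Amd1 are shared with other genes.

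Of the regulators of transcription, none passed the adjusted threshold. Among 22 PGC-1, PPAR and ERR regulators, 2 were higher and 2 were lower, and the median was 9.325e-05. Perm1, a muscle partner of PGC-1, had 61.4, 58.1 and 61.0 TPM on the ground and 48.1, 42.1 and 38.1 TPM after flight (adjusted p 0.126). Ppara, the fatty acid-sensing nuclear receptor, had 10.7, 8.40 and 6.35 TPM against 5.21, 5.24 and 5.34 TPM (adjusted p 0.218). Prkag3, the AMP kinase subunit of fast fibers, lay above with 55.3, 50.9 and 54.9 TPM against 81.9, 62.2 and 73.5 TPM (adjusted p 0.183). Of 13 myogenic factors, 3 were higher and 1 was lower, and Myf6, the factor of mature fibers, had a log2 difference of -0.28 (adjusted p 0.247). Clock genes had 2 of 21 members higher and none lower, Hlf at 0.44 and Tef at 0.23 (adjusted p 0.218 and 0.294). Of 13 neuromuscular junction genes, only the agrin receptor Lrp4 had an unadjusted p under 0.05, with a log2 difference of 0.27 (adjusted p 0.31).

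Among 29 immediate-early genes and DUSP phosphatases, which switch off MAP kinases, 4 were lower and none was higher. Dusp18 measured 6.46, 4.63 and 4.45 TPM against 2.30, 2.07 and 1.78 TPM (adjusted p 0.0996), and Dusp7 measured 22.6, 21.7 and 15.2 TPM against 8.82, 12.5 and 10.9 TPM (adjusted p 0.135). Interferon and antigen presentation genes had a median of 0.19, with 3 of 18 higher and none lower. Mndal, a nuclear interferon-inducible protein, was at 11.8, 12.5 and 12.4 TPM on the ground and 18.8, 17.1 and 20.2 TPM after flight (adjusted p 0.0908). The list's median without single libraries ran from 0.08 to 0.28. Of 39 collagen and matrix genes, 2 were higher and 1 was lower, and the fibrillar collagen Col24a1 had 6.19, 5.78 and 5.89 TPM against 7.90, 9.90 and 11.3 TPM (adjusted p 0.139).

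Of 9 secreted muscle factors, 2 were lower, among them Fndc5, the precursor of irisin, with 25.6, 20.6 and 23.2 TPM against 18.1, 12.4 and 14.4 TPM (adjusted p 0.156). Lipid synthesis genes had 3 of 23 members lower and 1 higher, with Agpat2, an enzyme of triglyceride assembly, at -0.57 (adjusted p 0.133). The list of translation factors had 9 of 63 members lower and 6 higher. The member with its smallest p was among the lower ones, Eif4a-ps4, at a log2 difference of -0.53 (adjusted p 0.138). Eif4a-ps4 is a processed pseudogene with 97.4% of its words shared with other genes, so its level cannot be assigned with certainty to that locus. Eif1, which selects the start codon, had a log2 difference of -0.57, and Eif4g3, a scaffold of cap binding, had 0.23 (adjusted p 0.193 and 0.226).

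Of 52 tested RNA-binding proteins that govern splicing, 41 had a difference above 0, 16 were higher at an unadjusted p under 0.05 (30.8%, against 8.52% of all genes) and none was lower. The median was 0.15, and 0.09 to 0.16 without single libraries, in which 6 to 18 members were higher. No member passed the adjusted threshold. Rbfox2, a regulator of muscle exons that binds near the splice sites it controls, came closest, at 63.9, 60.4 and 53.9 TPM on the ground and 86.2, 85.5 and 92.0 TPM after flight. Its flight values lay wholly above the ground values, with a log2 difference of 0.56 (SE 0.09, adjusted p 0.0774). Snrnp70, a protein of the U1 particle that marks 5′ splice sites, had 107, 108 and 99.2 TPM against 126, 145 and 174 TPM (adjusted p 0.162). Rbm5, an RNA-binding motif protein, had a log2 difference of 0.35 (adjusted p 0.167). Hnrnph1 and Srsf11 followed with 0.33 and 0.31 (adjusted p 0.218 and 0.236). The log2 difference of Rbfox1, the muscle and brain relative of Rbfox2, was 0.21 (adjusted p 0.272).

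**Figure D4:**
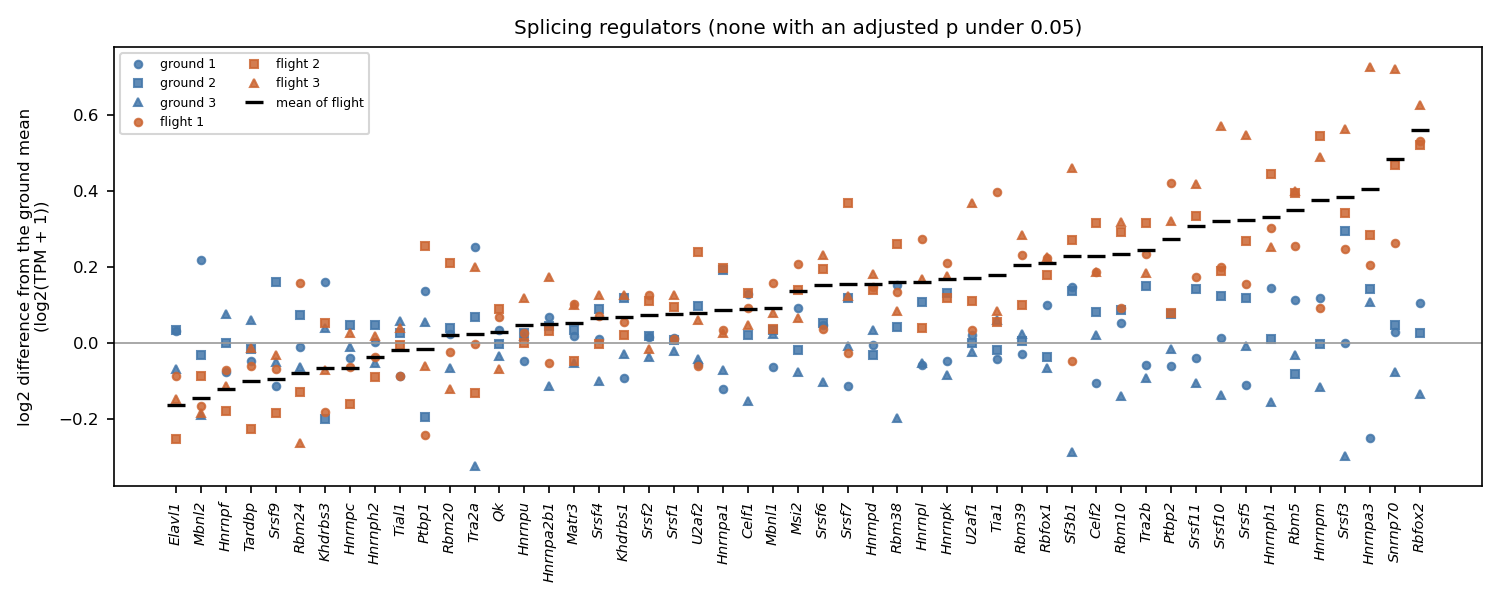
Each gastrocnemius library's log2(TPM + 1) minus the ground mean for the splicing regulators shown, ordered by the mean of flight (black bars), with ground in blue and flight in orange. Most genes have a mean above 0, and Rbfox2 at the far right has a mean of 0.56 with all flight points above all ground points.

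Of 37 histone and HMG genes, 5 were higher (13.5%, against 8.52% of all genes) and 4 were lower (10.8%, against 6.55%), and Hmga1 was the 1 called. Hist1h2be was at 5.97, 5.87 and 5.85 TPM on the ground and 3.05, 3.27 and 3.07 TPM after flight (log2 difference -0.74, adjusted p 0.0774). H2afz, a replacement histone of active promoters, had 27.02, 27.9 and 31.3 TPM against 19.2, 10.6 and 12.6 TPM (adjusted p 0.112). Hist1h4k was listed at 0, 3.97 and 2.50 TPM on the ground and at 24.7, 81.1 and 20.6 TPM after flight (adjusted p 0.103), and 86.2% of its 31-base words are shared with other genes.

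Outside the lists, the genes with the smallest p and a change over 1.5-fold include Ccdc88c, a Dishevelled-binding protein, which had 24.6, 26.1 and 30.9 TPM on the ground and 43.9, 43.5 and 49.3 TPM after flight (log2 difference 0.73, adjusted p 0.0706). Myo5c, an unconventional myosin, measured 22.1, 22.4 and 19.6 TPM against 30.9, 32.8 and 35.4 TPM (adjusted p 0.0774). Nav2, a neuron navigator protein, and Agbl1, a carboxypeptidase that trims glutamates, had log2 differences of 0.61 and 0.64 (adjusted p 0.103 and 0.121). Peg3, a paternally expressed zinc finger gene, measured 5.26, 5.03 and 5.11 TPM against 7.96, 8.58 and 13.2 TPM (adjusted p 0.139). On the lower side, Cyfip2, a subunit of the WAVE actin regulator, had 5.91, 5.11 and 6.82 TPM against 2.96, 2.78 and 2.99 TPM (adjusted p 0.0957). Pcp4l1, a small calmodulin-binding protein, had 20.1, 20.1 and 24.2 TPM against 14.2, 8.05 and 9.29 TPM (adjusted p 0.117).

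Splicing was measured on junction reads in 2118 events of 1049 genes, 1509 skipped exons and 609 pairs of mutually exclusive exons, with 848312 to 1102181 junction reads per sample over these events. The junction tables give the 3 samples of a group without naming the mice. Exon usage changed in 8 events (0.378%), all of them exclusive pairs, 7 in Ttn and 1 in Neb. At an unadjusted p under 0.05 there were 201 events (9.49%), 49 of them in Ttn and 21 in Neb, and in 343 (16.2%) the groups did not overlap. Skipped exons with an unadjusted p under 0.05 were split between 50 with more and 66 with less inclusion in flight. By length, they were 29 of 335 exons of up to 60 bases and 87 of 1174 longer ones.

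Titin is the elastic giant that runs from the Z-disc to the middle of the sarcomere, and the changed exons lie in a stretch of short coding exons on the minus strand of chromosome 2 (GRCm38). Of the 7 called events, 5 share 1 partner, the 87-base exon 171 of transcript Ttn-203 at chr2:76831788-76831874, so these events are not independent. The exon with the largest change is the 75-base exon 135 at chr2:76850306-76850380. Both are exons of the annotated transcript Ttn-203. They are shown, with no part in capitals, because the balance of reads between them moved most and because both keep the reading frame.
Ttn exon 135: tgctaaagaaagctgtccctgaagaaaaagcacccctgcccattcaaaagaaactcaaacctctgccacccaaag
Ttn exon 171: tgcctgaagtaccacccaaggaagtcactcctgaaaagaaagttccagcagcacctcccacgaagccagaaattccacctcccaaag

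Exon 135, measured against exon 171, took 44.4%, 41.9% and 40.8% of the pair's length-scaled reads on the ground and 76.1%, 69.7% and 73.7% after flight. The groups stood far apart, with means of 42.4% ± 1.84 and 73.2% ± 3.21 (SD, n = 3), each from 3434 to 4230 junction reads a sample. This change had an adjusted p of 0.00262 and was the one event called in all 6 fits without 1 sample. Exons 127, 128, 141 and 153 also rose against exon 171, by 20.1 to 25.95 points. As an example, exon 141 went from 12.5%, 13.7% and 9.96% to 33.1%, 25.3% and 40.8% (adjusted p 0.0396). In the other direction, exon 192 of 84 bases fell against exon 194, from 38.6%, 41.8% and 40.99% to 17.0%, 25.2% and 13.6% (adjusted p 0.0396). Exon 202 fell against exon 203, from 26.5%, 24.8% and 23.1% to 15.98%, 15.2% and 12.9% (adjusted p 0.0396). None of the 25-base words in these exons occurs a second time in the transcript. The other 6 Ttn calls were kept in 1 or none of the fits without 1 sample. Over all genes, 9 events were called without flight sample 2 and 1 without any other single sample.

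Nebulin runs along the thin filament and helps to set its length. Its called event compares 2 neighbouring coding exons of 105 bases each on chromosome 2, both held by the annotated transcript Neb-202. They are exon 120 at chr2:52189599-52189703 and exon 121 at chr2:52188683-52188787.
Neb exon 120: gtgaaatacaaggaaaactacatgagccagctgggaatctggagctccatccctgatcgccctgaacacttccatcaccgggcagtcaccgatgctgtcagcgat
Neb exon 121: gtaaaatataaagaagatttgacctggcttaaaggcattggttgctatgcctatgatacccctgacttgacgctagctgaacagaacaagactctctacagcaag
Exon 120 took 85.5%, 83.7% and 84.8% of the pair's length-scaled reads on the ground and 90.8%, 91.7% and 91.4% after flight. The groups did not overlap, with means of 84.7% ± 0.914 and 91.3% ± 0.417 (SD, n = 3), a rise of 6.62 points at an adjusted p of 0.0396. No fit without 1 sample kept the call.

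Beyond titin and nebulin no event passed the adjusted threshold, and the smallest adjusted p was 0.0639. One of the events at that value was in Tnnt3, where the 78-base exon 13 of transcript Tnnt3-218 (chr7:142511465-142511542) was measured against the 114-base exon 14. Both exons are annotated in that transcript, so the values are shares of the pair's reads. Exon 13 took 23.1%, 25.4% and 25.9% on the ground and 18.8%, 15.5% and 13.7% after flight, from 22327 to 39750 junction reads a sample. All flight values were below all ground values, and the adjusted p was 0.00515 when samples were weighted by their reads and 0.0125 in a quasi-binomial model. The other event at 0.0639 was a 155-base exon of Cacnb1, a subunit of the voltage sensor, which was included in 100% of ground transcripts in each sample and in 94.7%, 95.7% and 93.0% of flight transcripts. It rested on 62 to 138 reads a sample, and its adjusted p was 0.542 when weighted and 0.612 in the quasi-binomial model.

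Exons of genes of calcium control, glycogen metabolism and splicing regulation were named at an unadjusted p under 0.05, and none survived adjustment. The groups did not overlap in those spelled out below, which this selection favours, and in 16.2% of all events tested. Some named events of these lists, in Rbm39, Msi2 and Bin1, had groups that overlapped. The short exons of 2 calcium genes, Ryr1 and Ppp3ca, and of the splicing regulator Mbnl1 are given with the 15 neighbouring transcript bases on either side, and capitals mark the exon.
Ryr1, chr7:29056234-29056248, minus strand: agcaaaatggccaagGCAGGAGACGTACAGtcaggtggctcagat
Ppp3ca, chr3:136932011-136932040, plus strand: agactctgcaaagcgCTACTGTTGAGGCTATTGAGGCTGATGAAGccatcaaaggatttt
Mbnl1, chr3:60621423-60621458, plus strand: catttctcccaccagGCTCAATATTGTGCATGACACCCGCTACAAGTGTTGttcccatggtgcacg
The 15-base exon of Ryr1, whose use is known to vary with muscle development, was in 69.1%, 68.4% and 69.4% of ground transcripts and in 77.9%, 77.4% and 77.98% of flight transcripts. Replicates differed by about a point while the groups differed by 8.77 points, on 1250 to 2246 reads a sample (adjusted p 0.169, and 0.0503 when weighted). The 30-base exon of Ppp3ca, the catalytic subunit of calcineurin, went from 83.97%, 88.6% and 92.4% to 76.7%, 77.3% and 80.0% (adjusted p 0.462). The 177-base exon 19 of Phka1, a regulatory subunit of phosphorylase kinase, went from 55.2%, 66.1% and 67.6% to 74.7%, 79.1% and 80.7% (adjusted p 0.339). A 63-base exon of Dysf, the membrane repair protein dysferlin, went from 12%, 14.3% and 12% to 23.8%, 36% and 36%, on only 14 to 26 reads a sample (adjusted p 0.45).

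Splicing regulators and Z-disc proteins held events of the same kind. The 36-base exon 7 of Mbnl1, a muscleblind protein that drives adult splicing, was in 5.82%, 12.6% and 7.96% of ground transcripts and in 31.8%, 20.8% and 29.8% of flight transcripts, on 20 to 38 reads a sample (adjusted p 0.304). Measured against the 95-base exon 8, on 118 to 191 reads, the change was smaller. There exon 7 took 2.39%, 7.74% and 5.82% on the ground and 11.9%, 9.03% and 11.7% after flight (adjusted p 0.463). A 40-base exon of Rbfox1, which shifts the reading frame, went from 4.98%, 9.76% and 5.57% to 13.9%, 14.3% and 16.6% (adjusted p 0.39). Inclusion of both was higher in every flight sample than in any ground sample. In Pdlim7, an adaptor of the Z-disc, the 119-base exon was used over its 17-base rival in 7.77%, 7.81% and 7.30% of ground and 11.6%, 19.0% and 19.2% of flight transcripts (adjusted p 0.277, and 0.0283 when weighted). The 9265-base exon of Xirp2, an actin-binding protein of the Z-disc and costamere, was measured against a 134-base exon. It took 47.4%, 52.7% and 53.1% of the pair's reads on the ground and 42.7%, 38.2% and 36.01% after flight (adjusted p 0.294, and 0.0263 when weighted). Ldb3, the Z-disc protein cypher, used a 186-base exon in 15%, 10.7% and 12.5% of ground and 6.17%, 3.70% and 6.90% of flight transcripts (adjusted p 0.511).

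The widest of the other named differences was in Prxl2c, a peroxiredoxin-like gene, whose 54-base exon went from 82.6%, 88.2% and 80.0% to 59.1%, 44.7% and 56.3% on 21 to 35 reads a sample (adjusted p 0.275). Mef2c, a myogenic transcription factor, included a 144-base exon in 89.3%, 89.8% and 91.8% of ground and 98.8%, 94.4% and 98.7% of flight transcripts (adjusted p 0.235). Of 37 named events in 31 genes outside Ttn and Neb, 21 keep the reading frame and 33 have an included exon that is coding in full. In 33 the groups did not overlap, which their selection by p favours. With samples weighted by reads, 3 of the 37 had an adjusted p under 0.05 (Tnnt3, Pdlim7 and Xirp2), and in the quasi-binomial model 1 did (Tnnt3).

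**Figure D5:**
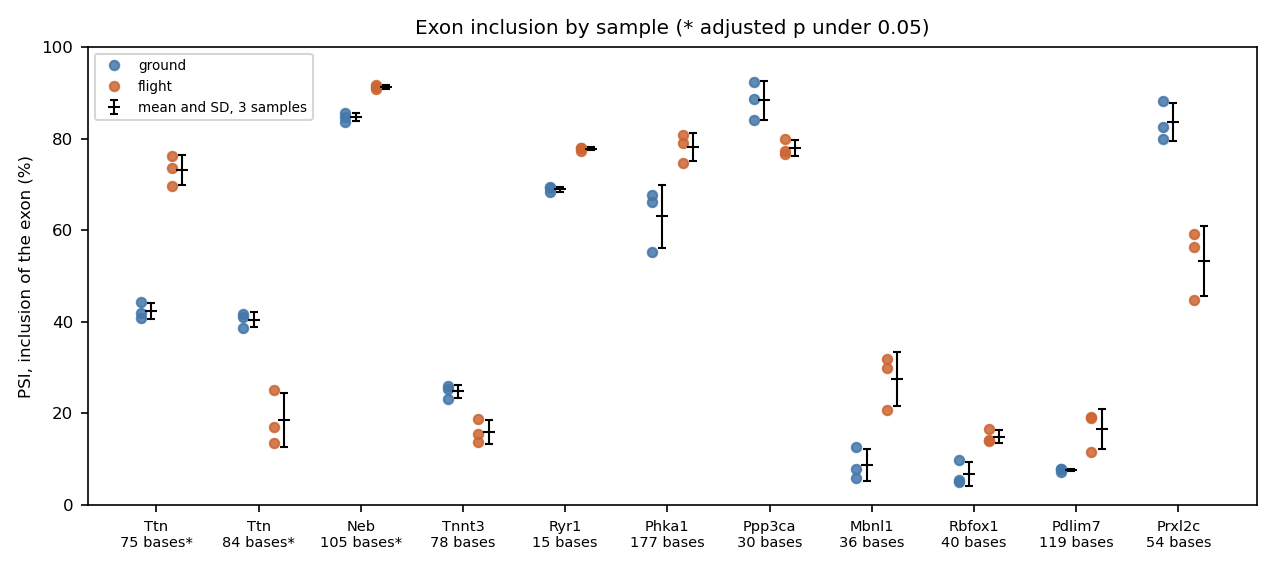
PSI in percent for 11 exons in each gastrocnemius sample, ground in blue and flight in orange, with black marks for the mean and SD of 3 samples. Groups do not overlap in any of the 11, and the 3 starred exons of Ttn and Neb have an adjusted p under 0.05.

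The flight difference in the gastrocnemius was also set against that in the quadriceps of the same mice by testing the interaction of muscle and flight. No gene had an adjusted interaction p under 0.05 in limma with mouse as a block. At an unadjusted p under 0.05 there were 494 genes, and 363 without the block, and the smallest adjusted p was 0.439. Mid1 had log2 differences of 1.24 here and 1.33 in the quadriceps, and Fabp3 of -0.88 here and -0.67 there. The muscles were further apart for Idh2 (-0.64 and -0.10), Fblim1 (0.94 and 0.24), Ldhb (-0.65 and -0.21) and Atp2a2 (-0.88 and -0.14). Their unadjusted interaction p values in limma were 0.00053, 0.00067, 0.00225 and 0.0325, and the adjusted values were 0.439 to 0.982. All of them were called in the gastrocnemius, a choice that favours the larger difference on that side. Of the 24 called genes, 22 had the same sign in the quadriceps, but the share over all genes tested was not computed. The muscles come from the same mice, so this count is not a replication, and 11 of the 24 are predicted genes or pseudogenes.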

How the data were processed

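RNA of whole muscle was sequenced in 12 libraries, of which the 6 gastrocnemius libraries are described here. Per the labels, the authors used STAR 2.7.1a and kallisto 0.46.0 on mm10, and DESeq2 1.26.0 for their own tests. The deposited gene table holds TPM, estimated by the authors with kallisto and collapsed to genes. TPM keeps no read depth, so the depth of each library, which the study reports, did not enter the fits of gene levels. Gene symbols, positions and exons come from GENCODE vM21 (GRCm38), which named 35856 of 36008 genes. The deposited splicing tables hold counts of inclusion and skipping junction reads that the authors made with rMATS-turbo, filtered by the authors on reads and PSI over all samples, with the 3 samples of a group in 1 cell. Their columns of PSI, p-values and false discovery rates were not used, nor were the quadriceps splicing tables.

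Genes that exceeded 5 TPM in any of the 12 libraries were tested on log2(TPM + 1) with limma 3.58.1 (R 4.3.3, eBayes with a trend, two-sided, 3 against 3 libraries, no covariate). Splicing events whose mean read count was above 10 in each group, and which were not at an extreme PSI (within 5 points of 0 or 100%) in all 6 samples, were tested with limma on the log2 ratio of length-scaled inclusion to skipping reads, each with 0.5 added. Calls needed an adjusted p under 0.05 and a change over 1.5-fold, or over 5 PSI points. In an exclusive pair, inclusion refers to the exon nearer the transcript start. The muscle interaction was fitted on 12 libraries with mouse as a block (correlation 0.149). Gene lists were described by counts and medians without a set test. Named genes are the called genes, up to 6 members per list with the smallest unadjusted p under 0.05, and the 15 genes each way with the smallest p and a fold over 1.5 outside the slow-twitch, ribosomal and oxidative phosphorylation lists. Named events are the called ones, the 20 with the smallest p in genes other than Ttn and Neb, and those of the splicing regulator, Z-disc, calcium and glycogen lists with an unadjusted p under 0.05. Only part of these are spelled out. A result that is withheld is not reported here or plotted, though it counts in its list. The comparison, lists and rules were chosen with earlier results of these data known. The scripts were tested on simulated data. The 6 mice are separate animals, so p-values measure the spread between mice.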

Additional observations from a re-analysis of the deposited data

How the results depend on the processing

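The count of called genes was 24, and 24 with 0.5 or 0.1 added to TPM in place of 1, though 22 and 19 of the same genes were kept. It was 27 with the filter on gastrocnemius libraries, 18 with median-ratio scaling, 21 with robust variances and 32 with all 12 libraries in the fit. It was 4 without a filter on low values, 5 without a trend in the variances and 0 with a replicate block, where 1257 genes had an unadjusted p under 0.05. The labels give each library of a group its own mouse and state no pairing of ground with flight mice by number. Deviations of same-numbered libraries from their group means correlated at -0.143, 0.111 and 0.00287, and not each library correlated best with its own number. Deviations of 3 libraries from their own mean are tied to each other, so these values cannot decide on a pairing or batch by number, which was not tested. Without single libraries the count ran from 1 to 133. It was 133 without flight 1, with 23 of the 24 genes kept, and 2 and 1 without flight 2 and flight 3, and 6, 3 and 8 without ground 1 to 3. A fit without 1 library assumes that the pair left varies like the full group. For splicing the count was 8, and 8 with a minimum of 20 reads or without the PSI filter, 12 with 1 read added, 36 with samples weighted by reads and 27 in the quasi-binomial model, and the 8 events were kept in each of these. Without single samples it ran from 1 to 9, with 9 only without flight sample 2. No paired analysis was possible for splicing because the tables name no mice. The muscle interaction gave 0 genes with and without the block. No named gene or event changed sign under any alternative, while some list medians did (PGC-1 regulators, calcium handling, matrix, histones, immediate-early genes, lipid synthesis, and the markers of muscle fibers, adipocytes, endothelium and fibroblasts). TPM without read counts, and 3 mice a group, limit which differences could be called, and why the counts moved was not tested.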

Other observations

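Without the library of flight 1, genes of other lists joined the called set, in a fit of 3 ground against 2 flight libraries that called 133 of 10481 genes, 50 higher and 83 lower. They included Hadhb of beta-oxidation, Mpc2 of pyruvate transport, Bdh1 of ketone metabolism, Ugp2 of glycogen synthesis, Prdx2, the proteasome gene Psmb4 and the irisin precursor Fndc5, all lower in flight. In mitochondrial import 4 of 41 members were called lower (Timm50, Pam16, Timm8b and Chchd2), in the mitochondrial ribosome 3 of 78 (Mrps24, Mrps16 and Mrpl42), and in the cytosolic ribosome 17 of 86. Snrnp70, of the splicing regulators, and the collagen Col24a1 were called higher. These sets are values of 1 alternative and were not tested further. In the full comparison the median deviation of cytosolic ribosomal protein genes from the ground mean was -0.10 in flight 1 and -0.34 in both flight 2 and flight 3.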
